A study of Mus musculus with 20 samples.

Results

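The 8 genes described here encode proteins that build, remodel and take up lipoproteins or move sterol out of hepatocytes: MTTP, LIPC, LCAT, SCARB1, LRP1, ABCA1, ABCG5 and ABCG8. They were chosen by name, as the genes with these symbols, ignoring case, in both deposited tables of TPM (a transcript abundance, with reads divided by gene length and scaled to the same total in every library). Each symbol matched 1 gene in either table, so that the members are 8 of 60607 human genes in humanized livers and 8 of 55335 mouse genes in WT livers. Every member had a mean TPM of at least 1 in both hosts and entered the tests.

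Lipoprotein secretion begins in the endoplasmic reticulum, where microsomal triglyceride transfer protein (MTTP) loads lipid onto apolipoprotein B. In plasma, hepatic lipase (LIPC) hydrolyses triglyceride and phospholipid of the particles, and lecithin-cholesterol acyltransferase (LCAT) esterifies the cholesterol of high density lipoprotein (HDL). The liver takes sterol back through SCARB1, the HDL receptor, and LRP1, a receptor of remnant particles, and releases it through ABCA1, which passes cholesterol to apolipoprotein A-I, and through the heterodimer of ABCG5 and ABCG8, which sends sterols into bile.

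HuR, encoded by ELAVL1, is an RNA-binding protein known to bind AU-rich and U-rich stretches of mRNA, and the study asked whether its loss changes gene expression alike in human and mouse hepatocytes. Livers of 20 mice were sequenced as strand-specific total RNA. WT mice were male C57BL/6 mice bought at 8 weeks of age and housed for at least 10 days, of which 6 received an adenovirus with shRNA to mouse HuR (HuR KD) and 6 a LacZ control virus (LacZ). Humanized mice were TK-NOG mice, which are highly immune-deficient and carry a herpes simplex thymidine kinase transgene under a mouse albumin promoter, and which received 25 mg/kg ganciclovir at 8 to 9 weeks of age and then human primary hepatocytes. They were used 8 to 12 weeks later if serum human albumin was above 0.5 mg/ml, with 4 mice given shRNA to human HuR and 4 the control virus. Every mouse received 2000000000 pfu intravenously, and the liver was taken after 7 days and a 4 h fast. The hepatocytes came from few donors, and which mouse carried which donor's cells is not given in the sources used here. The hosts also differ in shRNA sequence, immune state, age and read length, and these cannot be told apart from the species.

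The table of the humanized livers lists human genes only, so mouse cells that remained in those livers are not seen in it. Reads recovered from the steps of the TPM values ranged from 2670469 to 20302454 per humanized and from 1423985 to 44668272 per WT library. Between 162 and 11919 reads lay behind a member's value in a humanized liver and between 123 and 51715 in a WT liver. The lowest numbers in WT livers came from LacZ replicate 2. WT HuR KD replicate 6 and WT LacZ replicate 2 stood farthest from their own groups, with a median absolute log2 difference of 0.29 each against at most 0.14 for the other WT livers. Among humanized livers, LacZ replicate 2 (0.33) and HuR KD replicate 4 (0.30) stood farthest from their groups, with 0.23 to 0.29 in the others. Both also had the deepest libraries of their groups and 49.1% of TPM in mitochondrial rRNA, against 27.2 to 36.0% in the other 6, and the part of these differences in the results was not tested beyond the fits that leave out either liver or add depth as a term. Protein-coding genes held 28.9 to 37.8% of TPM in humanized and 75.6 to 77.6% in WT livers, so levels are compared within a host. HuR mRNA itself was at 61.0% of the LacZ mean TPM in humanized (ELAVL1) and at 51.7% in WT livers (Elavl1). In both hosts every HuR KD liver lay below every LacZ liver. Log2 fold changes of TPM + 1 were −0.59 (limma adjusted p = 0.214) and −0.83 (limma adjusted p = 0.00105). The added 1 shrinks changes at such low levels, and with 0.1 added they were −0.72 and −0.95. Between 34 and 365 reads lay behind ELAVL1 in a humanized liver and between 57 and 1584 behind Elavl1 in a WT liver. Hepatocyte markers were abundant in both tables, with summed TPM of at least 36968 in every humanized and 62170 in every WT liver. All 9 human Kupffer cell and macrophage markers and all 6 endothelial markers had a mean TPM below 1 in humanized livers, and all 5 T and NK cell markers were listed at 0 there.

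Promoter and 3′ untranslated regions are described first, for the mouse genes only, whose build (GRCm38) matches the reference sequences. A link of these regions to the knockdown changes was not tested. Abcg5 (minus strand, chr17:84658234-84683011) and Abcg8 (plus strand, chr17:84676302-84700333) lie head to head. The transcription starts that RefSeq gives for the pair, at 84683011 and 84683121, leave 109 bases between them, chr17:84683012-84683120, shown here on the plus strand because both promoters share it. Capitals mark the TATAAA motif, which lies on the minus strand (read here as its reverse complement).

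Abcg5-Abcg8 intergenic: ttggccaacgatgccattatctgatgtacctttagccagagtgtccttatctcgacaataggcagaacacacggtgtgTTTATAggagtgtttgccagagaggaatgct

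RefSeq promoter windows of 300 bases (250 before and 50 after a start, GRCm38.p6) were searched on both strands for TATAAA (the TATA box core), GGGCGG (an Sp1 core), AGGTCA (a nuclear receptor core), CACGTG (an E-box) and CCAAT, and no 2 different motifs overlap in the members' windows. The Abcg5 and Abcg8 windows share 209 bases, so the TATAAA match is 1 site seen from both starts, and so is 1 CCAAT match, at the Abcg5 start. Of 32851 mouse windows, TATAAA occurs in 13.6%, AGGTCA occurs in 16.3%, the E-box in 7.15% and CCAAT in 37.4%. This Abcg8 window held 1 further CCAAT match, and a second Abcg8 window, with its start at 84676302, held none of the 5 motifs. The Mttp window (chr3:138143369-138143668) held GGGCGG at 1 position, a motif of 35.7% of windows, but its start lies 12041 bases upstream of the start of Mttp-201, the principal transcript in GENCODE M21. Windows existed for 7 of the 8 mouse members, all but Scarb1.

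Because HuR is known for AU-rich binding, ATTTA was counted in the 3′ untranslated region of each mouse member's principal transcript. Mttp-201 held 8 copies in 1201 bases, or 6.66 per kb, against a median of 1.28 per kb over 11222 tested genes. Abcg8 held 3 copies in 1534 bases (1.96 per kb), Abca1 held 6 in 3156 bases (1.90 per kb) and Lipc held 1 in 139 bases (7.19 per kb), a higher density than that of Mttp, from a single copy. Abcg5 (254 bases), Lcat (21 bases), Scarb1 (779 bases) and Lrp1 (789 bases) held none. At least 1 copy was present in 66.7% of the tested genes, and a copy is a match of letters, not a measured binding site. Human untranslated regions were not analysed here. Of the 8 Mttp copies, 4 are shown with their flanks as examples because Mttp fell in both hosts, with ATTTA in capitals and the position counted from the first base of the 3′ untranslated region.

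Mttp-201 base 80: gtttacatATTTAcctgtatt
Mttp-201 base 90: ttacctgtATTTAagatgttt
Mttp-201 base 1006: caccaagcATTTAaacatatt
Mttp-201 base 1016: ttaaacatATTTAttagtaaa

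In control livers the members held different ranks in humanized and WT livers. Among human genes in LacZ livers, MTTP was the most abundant per length at 224 ± 32.6 TPM (SD, n = 4), followed by ABCG5 at 41.4 ± 5.09 TPM. The other 6 members lay between 20.3 TPM (LRP1) and 28.4 TPM (LIPC and SCARB1), and neighbours in that order overlapped. In WT LacZ livers, Lcat was the most abundant at 697 ± 55.2 TPM (SD, n = 6), followed by Mttp at 258 ± 14.6, Lrp1 at 172 ± 24.3, Lipc at 125 ± 27.0 and Abca1 at 107 ± 7.99 TPM. Abcg5 (66.4 ± 6.62), Scarb1 (52.4 ± 5.23) and Abcg8 (50.2 ± 6.59 TPM) came last, and each overlapped its neighbour. The step from Lcat to Mttp, from Mttp to Lrp1 and from Abca1 to Abcg5 had no overlap between livers. These levels are given as a description, without a test.

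**Figure D1:**
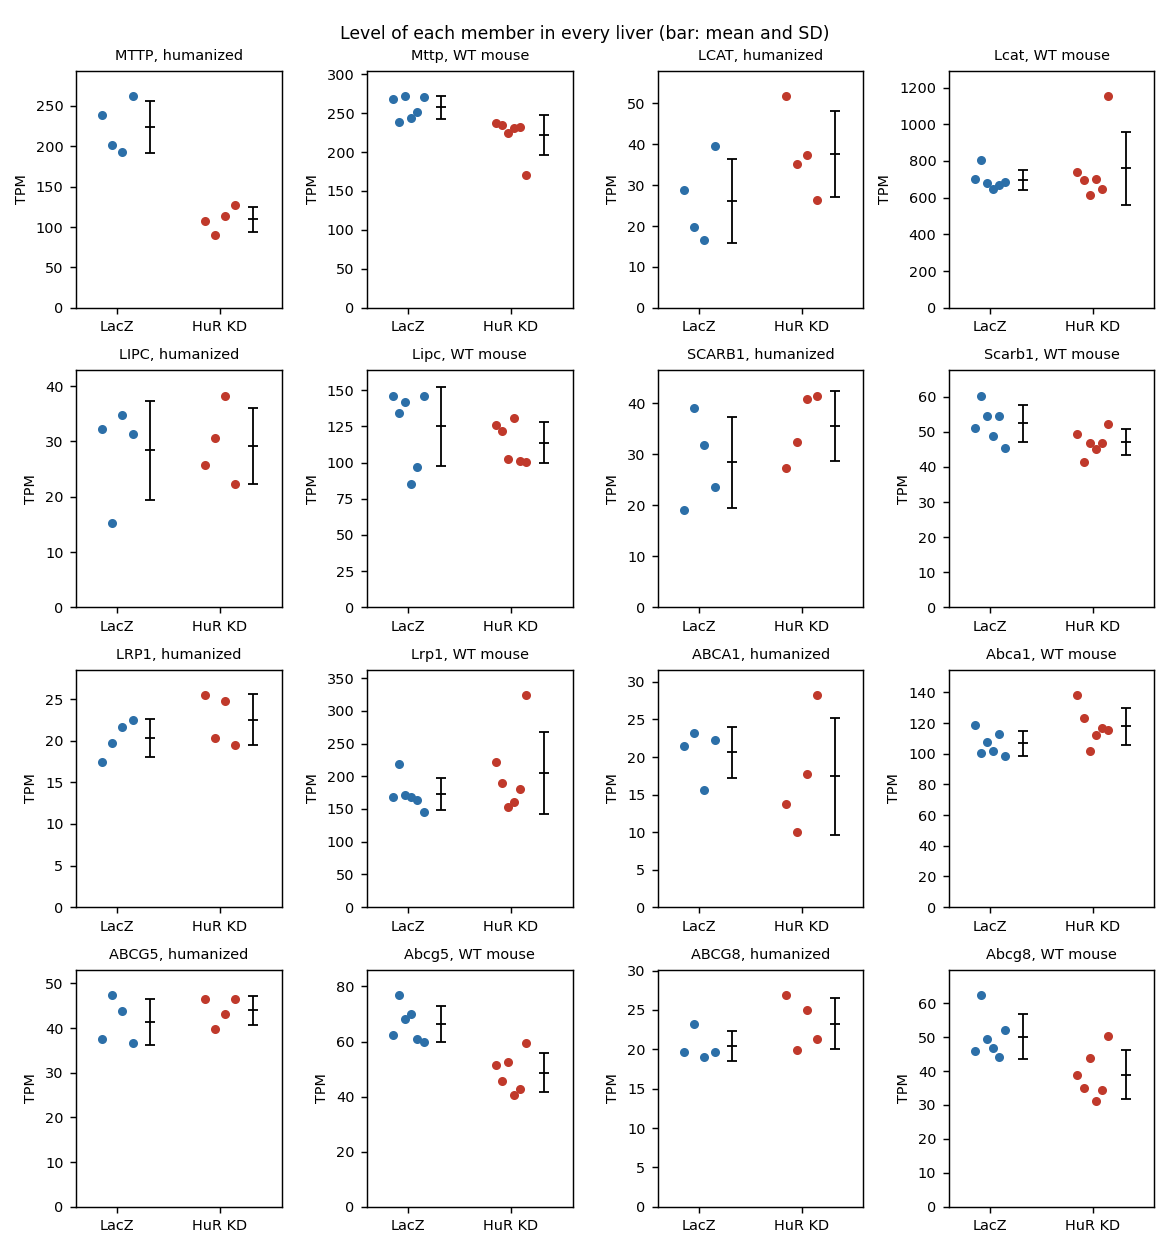
TPM (vertical axis, from 0) of each member in every liver, humanized and WT mouse panels side by side, with LacZ livers in blue and HuR KD livers in red, and the mean and SD as a bar beside each group. Human MTTP separates furthest, with HuR KD livers at 90.0 to 127 TPM and LacZ livers at 193 to 262 TPM, while mouse Abcg5 and Mttp separate with smaller gaps.

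With HuR KD, 1 of 8 members changed in humanized livers and 3 of 8 in WT livers, all downwards. A gene was called at an unadjusted p under 0.05 from limma on log2(TPM + 1), the threshold of the study. In humanized livers 11.5% of 12738 genes tested were called, and 7.87% were called lower. In WT livers 16.0% of 15090 genes were called, and 6.94% were called lower. At an adjusted p under 0.05 from limma, 0.212% of genes were called in humanized livers, MTTP among them, and 0.888% in WT livers, none of them a member. With 3 of 8 members called at an unadjusted p, the adjusted p of Abcg5, the lowest among mouse members, was 0.0528 from limma and 0.0272 from voom on the recovered reads. HuR KD livers all lay below all LacZ livers for 5.03% of genes in humanized and 1.23% in WT livers, and for MTTP alone among human members and for Mttp and Abcg5 among mouse members. The median log2 fold change was 0.11 over the 8 human members and −0.05 over all human genes, and −0.13 over the 8 mouse members and 0.03 over all mouse genes. In bulk liver, fewer cells of a type and less RNA per cell cannot be told apart.

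MTTP, the lipid loading step of lipoprotein assembly, fell to 48.9% of control in humanized livers. The LacZ livers were at 239, 201, 193 and 262 TPM and the HuR KD livers at 108, 90.0, 113 and 127 TPM. Every HuR KD liver lay below every LacZ liver, at 109 ± 15.3 against 224 ± 32.6 TPM (SD, n = 4 each). The exact permutation p, two-sided, was p = 0.0286, which is the lowest possible with 4 livers against 4. On the log2(TPM + 1) scale MTTP fell by 1.02 (95% interval −1.38 to −0.67, SE 0.16), with a limma adjusted p = 0.0467, and its mean TPM was 2.04-fold lower. All 8 fits without 1 liver called MTTP at the unadjusted p, with log2 fold changes from −1.10 to −0.93. The adjusted p lost the threshold without any 1 of the 7 livers other than LacZ replicate 2, rising to between 0.0530 and 0.173. With the 2 deepest livers as a term it was 0.0314.

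Mouse Mttp fell by less, to 86.2% of control. LacZ livers ranged from 239 to 272 TPM (median 260) and HuR KD livers from 171 to 237 TPM (median 232). No HuR KD liver reached the lowest LacZ liver, at 222 ± 25.3 against 258 ± 14.6 TPM (SD, n = 6 each). The exact permutation p, two-sided, was p = 0.00216, the lowest possible with 6 livers against 6. On the log2 scale Mttp fell by 0.22 (SE 0.08), with a limma adjusted p = 0.207. HuR KD replicate 6, at 171 TPM, lay well below the other 5 at 225 to 237 TPM, and without it the log2 fold change was −0.15, still called. In a joint limma fit of 8206 genes with the same symbol in both tables, the fold change in humanized livers lay below that in WT livers at a difference of −0.80 (95% interval −1.14 to −0.46, SE 0.16), with adjusted p = 0.00622. MTTP was the only member with an adjusted p under 0.05 for this difference, a call made for 5.01% of the pairs. It was called in all 20 fits without 1 liver, with an adjusted p of at most 0.0182.

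LIPC, the hepatic lipase that trims triglyceride-rich particles, did not pass the test in either host. Human LIPC was at 32.2, 15.2, 34.8 and 31.4 TPM in LacZ livers and at 25.7, 30.6, 38.3 and 22.4 TPM with HuR KD, so the groups overlapped and LacZ replicate 2 was the lowest of all. The log2 fold change was 0.08 (95% interval −0.54 to 0.69), and it turned to −0.19 without that liver and to −0.06 without HuR KD replicate 3. Mouse Lipc ranged from 85.0 to 146 TPM (median 138) in LacZ livers and from 100 to 131 TPM (median 112) with HuR KD, a log2 fold change of −0.11 (95% interval −0.42 to 0.20).

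LCAT, the enzyme that esterifies HDL cholesterol, was higher on average with HuR KD in humanized livers but missed the threshold. Its TPM were 28.7, 19.7, 16.7 and 39.5 in LacZ and 51.8, 35.1, 37.3 and 26.3 in HuR KD livers. The groups overlapped, with LacZ replicate 4 above 3 of the 4 HuR KD livers, and the exact permutation p over livers, two-sided, was p = 0.200. The log2 fold change was 0.54 (SE 0.29), with a limma adjusted p = 0.515. LCAT was called higher with median-of-ratios (0.63) or protein-coding scaling (0.65), with voom (0.62), and without LacZ replicate 4 (0.76) or HuR KD replicate 4 (0.70). Mouse Lcat ranged from 646 to 804 TPM (median 683) in LacZ livers and from 615 to 1154 TPM (median 699) with HuR KD. The log2 fold change of Lcat was 0.09 (95% interval −0.19 to 0.38), and −0.04 without HuR KD replicate 6, the liver at 1154 TPM.

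Neither uptake receptor passed the test in either host. SCARB1, the HDL receptor, was at 19.1, 39.1, 31.8 and 23.6 TPM in humanized LacZ livers and at 27.2, 32.4, 40.8 and 41.5 TPM with HuR KD. These groups overlapped, and the log2 fold change of 0.34 (95% interval −0.19 to 0.87) was called only without LacZ replicate 2, among the livers left out one at a time (0.51), and was 0.17 without LacZ replicate 1. Mouse Scarb1 ranged from 45.3 to 60.2 TPM (median 52.8) in LacZ livers and from 41.4 to 52.3 TPM (median 46.9) with HuR KD. All 6 HuR KD livers were below the LacZ mean, at a log2 fold change of −0.15 (95% interval −0.32 to 0.01, limma adjusted p = 0.349). It was called without HuR KD replicate 6 (−0.18) or LacZ replicate 6 (−0.19).

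LRP1, the receptor of remnant particles, was at 17.4, 19.7, 21.7 and 22.5 TPM in humanized LacZ livers and at 25.5, 20.3, 24.8 and 19.5 TPM with HuR KD, a log2 fold change of 0.14 (95% interval −0.19 to 0.47). Mouse Lrp1 ranged from 145 to 218 TPM (median 168) in LacZ livers and from 152 to 324 TPM (median 185) with HuR KD. The groups overlapped, and the log2 fold change of 0.21 (95% interval −0.14 to 0.56) was 0.07 without HuR KD replicate 6, the liver at 324 TPM.

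ABCA1, the exporter that lipidates apolipoprotein A-I, spread more widely with HuR KD in humanized livers. LacZ livers were at 21.5, 23.2, 15.6 and 22.2 TPM and HuR KD livers at 13.7, 10.1, 17.7 and 28.2 TPM, the last being the highest of all 8. The log2 fold change was −0.31 (95% interval −0.94 to 0.32), and it ranged from −0.56, a call, without HuR KD replicate 4 to −0.10 without HuR KD replicate 2. Mouse Abca1 went the other way on average, from 98.5 to 119 TPM (median 105) in LacZ livers and from 102 to 138 TPM (median 116) with HuR KD, at a log2 fold change of 0.14 (95% interval −0.02 to 0.30). It was called without HuR KD replicate 3 (0.18) or LacZ replicate 1 (0.17). The difference between hosts, −0.45, missed the threshold (adjusted p = 0.337 in the joint limma fit), and passed it without humanized HuR KD replicate 4 (−0.70, adjusted p = 0.0295), while it was −0.24 without HuR KD replicate 2.

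Abcg5 and Abcg8, whose products work only as a pair, both fell in WT livers. Abcg5 was at 62.3, 76.9, 68.3, 70.1, 60.8 and 59.8 TPM in LacZ and at 51.3, 45.7, 52.6, 40.7, 42.6 and 59.6 TPM in HuR KD livers. No HuR KD liver reached the lowest LacZ liver, though HuR KD replicate 6 came close to it (59.6 against 59.8 TPM). The mean fell to 73.5% of control, 48.8 ± 7.08 against 66.4 ± 6.62 TPM (SD, n = 6 each), with an exact two-sided permutation p = 0.00216. The log2 fold change was −0.44 (95% interval −0.65 to −0.23, SE 0.10). The limma adjusted p fell under 0.05 without HuR KD replicate 6 (−0.50, adjusted p = 0.0196) or HuR KD replicate 3 (−0.47, adjusted p = 0.0483). Among the 12 fits without 1 liver it did so in these 2 only, and it reached 0.132. All 12 called Abcg5 at the unadjusted p, with log2 fold changes from −0.50 to −0.39.

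Abcg8 was at 46.0, 62.4, 49.5, 46.9, 44.2 and 52.0 TPM in LacZ livers and at 38.8, 35.1, 43.9, 31.1, 34.5 and 50.4 TPM with HuR KD. The groups overlapped only through HuR KD replicate 6, as the other 5 lay below every LacZ liver. The mean was 77.7% of control, 39.0 ± 7.08 against 50.2 ± 6.59 TPM (SD, n = 6 each), with an exact two-sided permutation p = 0.0195. The log2 fold change was −0.37 (SE 0.12), with a limma adjusted p = 0.151, and −0.44 (adjusted p = 0.0460) without HuR KD replicate 6. It was weakest, at −0.30, without LacZ replicate 2, the liver at 62.4 TPM, where 138 reads lay behind Abcg8. All 12 fits without 1 liver called Abcg8 at the unadjusted p. Their limma adjusted p reached 0.290 and was under 0.05 in 1 only. The gene models of Abcg5 and Abcg8 overlap by 6710 bases on opposite strands. The libraries were strand-specific, but the strand setting of the read counting is not given in the sources used here. Whether reads in that stretch were assigned by strand is therefore not known.

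In humanized livers neither subunit passed the test. ABCG5 was at 37.6, 47.4, 43.8 and 36.8 TPM in LacZ and at 46.5, 39.7, 43.2 and 46.4 TPM in HuR KD livers, a log2 fold change of 0.09 (95% interval −0.21 to 0.39). ABCG8 was at 19.7, 23.2, 19.0 and 19.7 TPM in LacZ and at 26.9, 19.8, 25.0 and 21.3 TPM in HuR KD livers, a log2 fold change of 0.18 (95% interval −0.14 to 0.49). The human fold changes lay above the mouse ones by 0.53 for ABCG5 (adjusted p = 0.0539 in the joint limma fit) and by 0.54 for ABCG8 (adjusted p = 0.0875). Both differences passed the threshold without WT HuR KD replicate 6 (adjusted p = 0.0185 and 0.0278) and without humanized LacZ replicate 2 (adjusted p = 0.0213 and 0.0437). For either subunit these were the only 2 of 20 fits without 1 liver that passed, and the adjusted p reached 0.116 and 0.175. With the replicate block the joint limma adjusted p was 0.124 and 0.121. Of 8 other alternatives, 2 passed for ABCG5 and 0 for ABCG8.

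A shift in the balance of the 2 subunits was not detectable with these livers. ABCG5 was 1.87 to 2.31 times ABCG8 in humanized LacZ livers and 1.73 to 2.18 times with HuR KD, a difference of −0.09 on the log2 scale (exact permutation p, two-sided, p = 0.400). In WT livers the ratio was 1.15 to 1.50 with LacZ and 1.18 to 1.32 with HuR KD, a difference of −0.08 (exact permutation p, two-sided, p = 0.238). Over the 12 WT livers of both arms, likeness was measured as the mean absolute difference of log2(TPM + 1), centred over all livers. Of 9553 other genes, Abcg8 had the smallest difference from Abcg5, 0.09, and Abcg5 ranked 2 from Abcg8. In the 8 humanized livers each ranked lower on the other's list, 155 and 108 of 6446. Because the measure spans both arms, a change with HuR KD is itself part of the likeness, as with the fall of both WT subunits. Both human subunits varied little over the 8 livers (SD 0.14 for ABCG5 and 0.18 for ABCG8 on the log2 scale). These ranks describe livers that share libraries and carry no test.

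**Figure D2:**
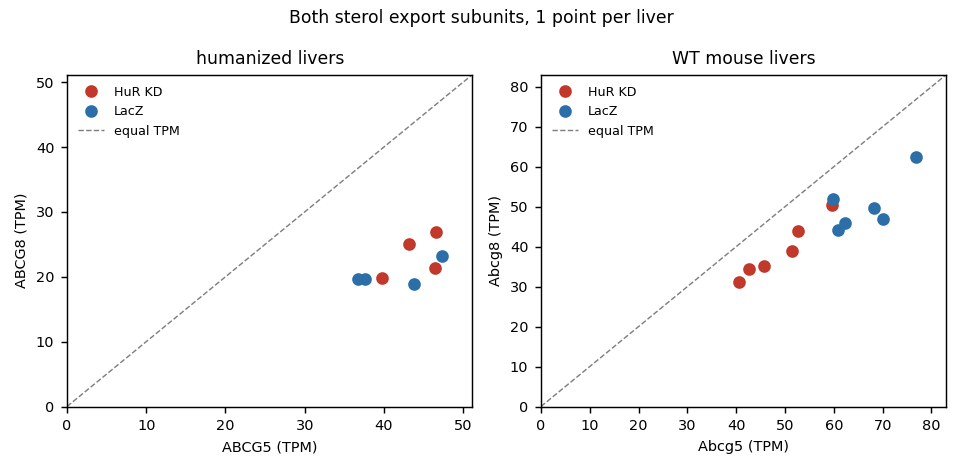
ABCG5 (horizontal, TPM) against ABCG8 (vertical, TPM) in each liver, humanized on the left and WT on the right, with HuR KD in red, LacZ in blue and the line of equal TPM dashed. In WT livers HuR KD points sit lower along the same direction, with Abcg5 1.18 to 1.32 times Abcg8, while in humanized livers the groups are mixed.

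**Figure D3:**
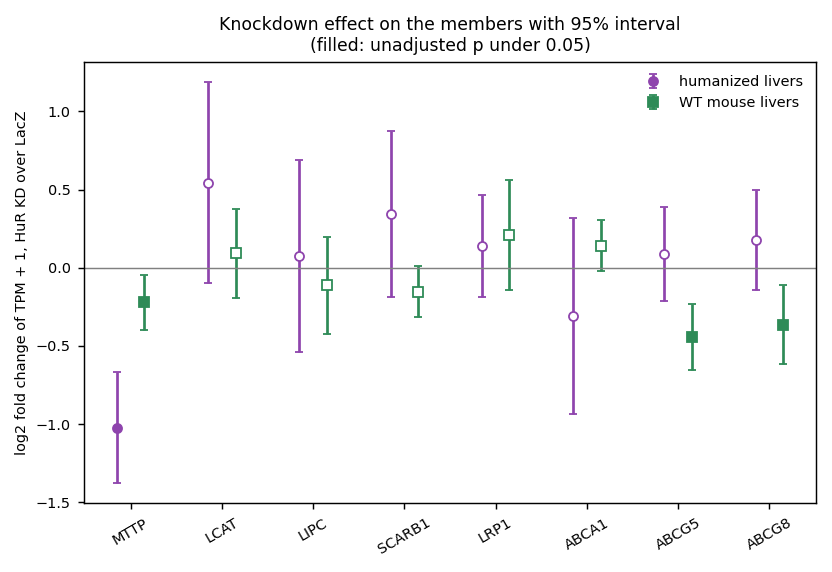
Log2 fold change of TPM + 1, HuR KD over LacZ (vertical axis), with 95% intervals, for each member in humanized (purple circles) and WT livers (green squares), filled where the unadjusted p is under 0.05. MTTP at −1.02 in humanized livers lies furthest from 0, and the WT values of MTTP, ABCG5 and ABCG8 lie between −0.44 and −0.22.

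By the same measure of likeness, among genes averaging 5 TPM or more that varied at least as much as the member (which leaves Abcg8 out for Abcg5), the gene nearest to human MTTP over the 8 livers was APP (mean absolute difference 0.10). The nearest genes were ZNF146 for LIPC, AQP3 for LCAT, TP53I13 for SCARB1, TIMM44 for LRP1, PRDX6 for ABCA1, OSTC for ABCG5 and RELA for ABCG8, at 0.04 to 0.17. Over the 12 WT livers they were Nus1 for Mttp, Mbl2 for Lipc, S100a1 for Lcat, Sirt7 for Scarb1, Tufm for Lrp1, R3hdm2 for Abca1, Lrp10 for Abcg5 and Abcg5 for Abcg8, at 0.04 to 0.10. None was the same gene in both hosts.

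The other genes of the pathway moved in both directions in either host. Over lists of assembly, uptake, plasma lipases, sterol movement, regulators and apolipoproteins, 10 of 53 tested human genes (18.9%) were called, 5 higher and 5 lower. Of 59 tested mouse genes, 11 (18.6%) were called, 6 higher and 5 lower. Over all genes tested, 11.5% were called in humanized and 16.0% in WT livers. The counts by list and by marker below stand beside these shares. Median log2 fold changes of the pathway genes were 0.08 in humanized and −0.02 in WT livers, beside −0.05 and 0.03 over all genes. Of the 10 human and 11 mouse genes, Tm6sf2 in WT livers alone had an adjusted p under 0.05.

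Among genes of assembly and secretion, TM6SF2, an endoplasmic reticulum protein that promotes lipid loading of very low density lipoprotein, rose in both hosts. It went from 5.40 ± 1.86 to 11.0 ± 3.41 TPM in humanized livers (SD, n = 4 each), a log2 fold change of 0.91 with no overlap (limma adjusted p = 0.210). Mouse Tm6sf2 went from 34.9 ± 2.25 to 46.3 ± 5.64 TPM (SD, n = 6 each), a log2 fold change of 0.39 (limma adjusted p = 0.0454), and the groups overlapped only between 37.8 and 37.9 TPM. APOB, the structural protein that MTTP loads, did not pass the test in either host, at 1494 against 1496 TPM in humanized and 3380 against 3858 TPM in WT livers, with log2 fold changes of 0.0088 and −0.20. Mouse Apob was called without LacZ replicate 2 (−0.25). MIA3, which helps load large cargo into secretory vesicles, was called lower in humanized livers (−0.37), but lost the call with 3 other scalings and without any 1 of HuR KD replicates 1, 2 and 3 and LacZ replicates 2 and 4 (−0.37 to −0.31). In WT livers Sar1b, the GTPase of COPII vesicles (−0.20), and P4hb, the smaller subunit of the MTTP complex (−0.23), fell, and Pla2g12b, an endoplasmic reticulum protein of lipoprotein assembly (0.17), rose. Of the list, 2 of 8 human and 4 of 10 mouse genes were called, as many higher as lower.

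Among genes of uptake and clearance, 1 of 9 human and 3 of 11 mouse genes were called. SORT1, a sorting receptor that binds apolipoprotein B, fell in humanized livers (−0.35), and kept the call in only 2 of the 8 fits without 1 liver, those without HuR KD replicate 3 or LacZ replicate 2. Sdc1, a heparan sulphate proteoglycan receptor of remnants (0.34), and Stab2, a scavenger receptor of sinusoidal endothelium (0.18), rose in WT livers. The Stab2 call was lost without any 1 of HuR KD replicates 1, 3, 4 and 6 and LacZ replicates 1, 2, 4 and 5, at 0.13 to 0.18. It was also lost with median-of-ratios scaling, quantile normalization, eBayes without trend, array weights or the shallowest livers removed, at 0.11 to 0.18. Stab2 was the only 1 of 6 endothelial markers called in WT livers, and 4 of the 6 had fold changes below 0 (median −0.03).

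Of the plasma lipases and modifiers, ANGPTL4, an inhibitor of lipoprotein lipase, rose in humanized livers from 15.5 ± 4.88 to 32.1 ± 14.0 TPM (SD, n = 4 each), a log2 fold change of 0.97 with no overlap (limma adjusted p = 0.251). PON1, an HDL-bound esterase, fell there (−0.31), but lost the call with the median-of-ratios (−0.22), quantile (−0.23) and protein-coding (−0.22) scalings, and without any 1 of HuR KD replicates 1, 2 and 4 and LacZ replicates 1 and 4 (−0.31 to −0.25). These were 2 of 5 human genes tested, and none of 7 mouse genes was called by limma or voom at the unadjusted p, though 7 of 7 had a fold change below 0 (median −0.08). Of those 7, quantile normalization called 2 lower and median-of-ratios scaling 1.

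In sterol movement and storage, 3 of 14 human and 4 of 14 mouse genes were called. NCEH1, a neutral cholesterol ester hydrolase, fell in both hosts, from 2.49 ± 0.623 to 1.07 ± 0.447 TPM in humanized livers (SD, n = 4 each, log2 fold change −0.76) and from 39.4 ± 3.36 to 29.1 ± 6.66 TPM in WT livers (SD, n = 6 each, −0.46). GRAMD1C, a sterol transport protein of membrane contact sites, fell in humanized livers (−0.60). LIPA, the lysosomal acid lipase, rose in humanized livers (0.39) and fell in WT livers (−0.24), and neither limma adjusted p was under 0.05. Of the lysosomal sterol exporters, Npc1 rose (0.18, HuR KD livers above all LacZ livers) and Npc2 fell (−0.24) in WT livers. Mouse Lipa lost its WT call without any 1 of HuR KD replicates 5 and 6 and LacZ replicates 1 and 6, at −0.23 to −0.17. The call was also lost with array weights (−0.17), the replicate block (−0.24) or the shallowest livers removed (−0.17).

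Kupffer cell and macrophage markers moved in the WT livers beside these genes. Of 9 markers, 5 were called lower and all 9 had fold changes below 0 (median log2 fold change −0.40), among them Clec4f (−0.75) and Cd68 (−0.40). Their summed TPM ranged from 446 to 748 with HuR KD and from 624 to 850 with LacZ. Lipa, Npc2 and Nceh1 are also expressed in macrophages, and the part of these cells in the WT changes was not tested. In humanized livers 2 of 4 tested cholangiocyte markers, EPCAM (−1.17) and SPP1 (−1.61), were called lower with HuR KD. So was RELN (−1.19), from the stellate cell list. Of the 7 stellate cell and fibroblast markers, 5 had a mean TPM below 1 there. RELN alone therefore cannot be read as a sign of these cells. Only 1 cholangiocyte marker was called with each of the 3 other scalings, voom, the replicate block or eBayes without trend. Array weights called 3, and without a filter 0 were called. The cholangiocyte markers summed to 5.26 to 29.4 TPM with HuR KD and 11.5 to 44.4 TPM with LacZ, and the stellate cell markers, of which 1 of 2 tested was called, to 2.73 to 4.80 and 5.26 to 7.26 TPM. The part of these cells in the human changes was not tested. Of the hepatocyte markers, 5 of 6 had fold changes below 0 in humanized livers (median log2 fold change −0.22). None was called in the main limma fit, and 1 was called lower with the replicate block. In WT livers 1 of 5 was called lower and 4 had fold changes above 0 (median 0.06). The part of hepatocyte number in the changes was not tested either.

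Of 12 regulators of the pathway, RXRA, the partner of the nuclear receptors LXR, FXR and PPAR, rose in humanized livers from 20.9 ± 1.48 to 29.1 ± 1.65 TPM (SD, n = 4 each), a log2 fold change of 0.46 with no overlap (limma adjusted p = 0.161). MLXIPL, a carbohydrate-responsive transcription factor, rose there too (0.36), a call kept only without HuR KD replicate 4 or LacZ replicate 4 among the 8 fits without 1 liver. None of the 12 was called in WT livers by the main limma fit or voom at the unadjusted p. There 1 was called lower after median-of-ratios scaling or with the replicate block, and 1 higher after protein-coding scaling or with array weights. Of the 5 apolipoprotein genes used for cross-reference, none was called by the main limma fit at the unadjusted p in either host. Voom, array weights, depth as a term and scaling by median of ratios or protein-coding genes each called 1 higher in humanized livers. Array weights and removing the shallowest livers each called 2 lower in WT livers.

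**Figure D4:**
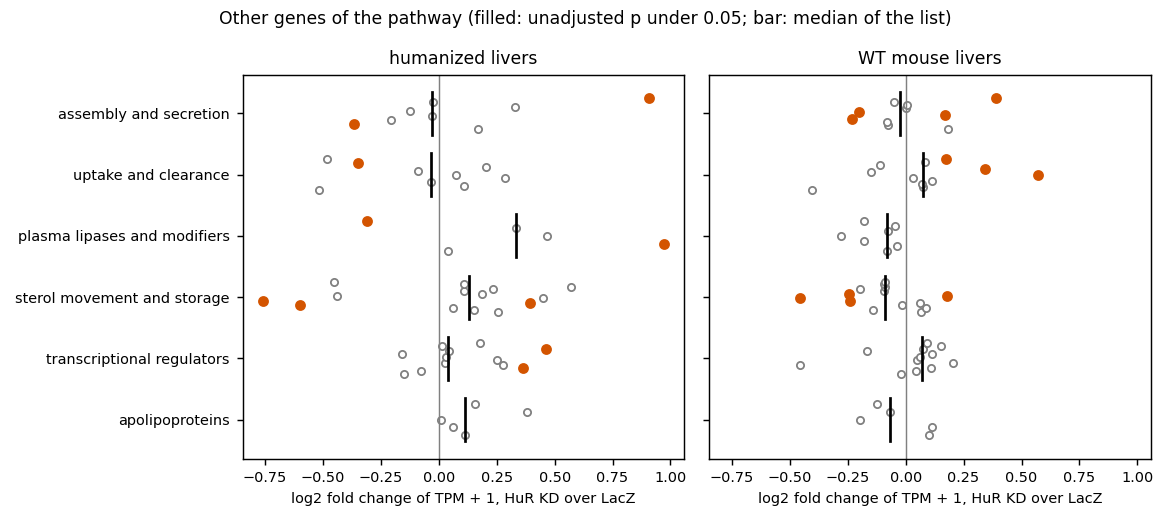
Log2 fold change of TPM + 1 (horizontal axis), HuR KD over LacZ, of each other pathway gene in humanized (left) and WT livers (right), by list, with genes at an unadjusted p under 0.05 filled and the list median as a bar. Called genes lie on both sides of 0 in assembly and in sterol movement, with TM6SF2 to the right and NCEH1 to the left in both hosts.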

How the data were processed

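The authors trimmed reads with cutadapt 2.8, aligned them with HISAT2 (WT livers to GENCODE M23, humanized livers to a combined index with human GENCODE v32), counted them with featureCounts 2.0 and deposited TPM, named after mm10 and GRCh38 in the processing notes. How TPM were computed is not given in the sources used here. Genes averaging 1 TPM or more were compared as log2(TPM + 1) with limma 3.58.1 (R 4.3.3, eBayes with trend) within each host, and called at an unadjusted p under 0.05, with the Benjamini-Hochberg adjusted p beside it. The authors compared groups with DESeq2, which needs counts, so limma was used on the TPM. Single values were tested by exact permutation (two-sided), with 70 or 924 groupings of livers. Labels do not say whether replicates share a cage or batch or, in humanized livers, a donor. The p-values rest on the spread between livers and treat each liver as independent, which could not be checked. Read numbers were recovered from the TPM steps for 18702 human and 25110 mouse genes. Voom on them called 1326 of 12385 human and 3017 of 15077 mouse genes tested. Sequences came from RefSeq (GRCm38.p6) and GENCODE M21.

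Named genes are the 8 members and ELAVL1, pathway genes called at p under 0.05 (at most 12 per host), APOB and the gene most like each member. Not every gene that this rule names is reported here, and the marker genes named in the text were chosen after their values were seen. Members, lists, markers and the ATTTA search were chosen with earlier results of these data known, and the depth alternatives after seeing the data. Scripts were tested on simulated data. Alternatives were another pseudocount and filter, 3 scalings, eBayes without trend, array weights, voom on recovered reads, replicate block and each liver left out. Figures used matplotlib 3.10.9 and tables Python 3.11.15.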

Additional observations from a re-analysis of the deposited data

Results flagged for a closer look

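In WT HuR KD livers, replicate 6 stood apart for 2 members, as the lowest in Mttp (171 TPM, others 225 to 237) and the highest in Lcat (1154 TPM, others 615 to 742). In WT LacZ livers, replicate 2 was the highest in Lcat (804 TPM, others 646 to 701) and Lrp1 (218 TPM, others 145 to 171). These 4 came from 32 groups checked by the gap of the extreme liver over the group's range, and chance flags about 1 in 20 groups. Both livers had the smallest libraries of their groups, at 12960373 and 1423985 reads, and the part of depth in these values was not tested. The effect of HuR KD on MTTP differed between hosts, by −0.80 on the log2 scale for humanized minus WT livers (adjusted p = 0.00622 in the joint limma fit).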

How the results depend on the processing

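Members called in humanized livers numbered 2 with median-of-ratios or protein-coding scaling or voom (LCAT joining MTTP) and 1 to 3 with 1 liver left out. In WT livers they numbered 5 with array weights, which called 4205 of 15090 genes tested, beside 2418 in the main fit. They numbered 4 with the shallowest livers removed, an alternative chosen after seeing the data. A filter at 5 TPM called 931 of 6447 human genes tested, beside 1461 of 12738 in the main fit. Members that differed between hosts numbered 2 with that filter or quantile normalization, and 1 to 4 with 1 liver left out. Direction turned for LIPC in humanized livers (−0.0043 with array weights, −0.19 to 0.19 with 1 liver left out), for APOB there (−0.0093, and −0.10 to 0.094), for WT Lcat (−0.035 to 0.15 with 1 liver left out), for the LIPC difference between hosts (−0.076 to 0.31) and for the LRP1 difference (0.017 with median-of-ratios, 0.030 with quantile and 0.013 with protein-coding scaling, −0.15 to 0.069 with 1 liver left out). None of these was past the threshold, and the cause was not tested. Human MTTP was called at the unadjusted p in every alternative run, but its limma adjusted p was 0.130 without a filter and 0.0955 without trend. Median log2 fold changes of human assembly and uptake genes (−0.03 each) turned to between 0.03 and 0.06 with the other scalings. Labels do not say whether livers with the same replicate number were paired. Deviations of same-numbered livers from their group means correlated at −0.25 to 0.14 in humanized and −0.14 to 0.21 in WT livers. Such correlations cannot show whether a cage, donor or batch was shared. With the replicate block, members called were 1 in humanized and 3 in WT livers, MTTP had a limma adjusted p = 0.134, and the subunit balance differed by −0.09 and −0.08. Low depth limits WT LacZ replicate 2, with 123 reads behind Abcg5.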
